A study of Mus musculus with 4 samples.

Results

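The gene for interleukin 10 (IL-10), the gene for IL-15 and 8 genes for receptor chains of the IL-10, IL-4, IL-13, IL-6 and IL-15 receptors were followed in mouse macrophages. These 10 genes, Il10, Il10ra, Il10rb, Il4ra, Il13ra1, Il6ra, Il6st, Il15, Il15ra and Il2rg, were picked by symbol, and all were found among the 55536 genes of the deposited tables. The cells were bone-marrow-derived macrophages of C57BL/6J mice, in 1 group of 4 libraries numbered as replicates. According to the labels they received 100 ng/ml lipid A for 12 h, spent 12 h in washout and were collected at 0 min of a second exposure to 100 ng/ml lipid A, whereas another label field calls the agent lipoprotein A. Sex and age were not collected, all replicates carry 1 donor identifier, and no untreated cells belong to the series. The values are therefore levels, not effects of the pretreatment, and p-values measure only the spread between these libraries, which may be technical.

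IL-10 is made by macrophages that have met bacterial products and restrains them through a receptor of a private chain, encoded by Il10ra, and a chain shared with other cytokines, encoded by Il10rb. Many cytokine receptors are built this way, from a chain that recognises the ligand and a shared chain, and signal through JAK kinases and STAT proteins. The shared chain of the IL-2 family is encoded by Il2rg (the common gamma chain) and that of the IL-6 family by Il6st (gp130). IL-15 is an exception in its handling, since it is bound by the chain encoded by Il15ra on the cell that makes it and shown to a neighbouring cell that carries the Il2rb and Il2rg chains.

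For Il4ra, the chain that binds IL-4, the level of the gene was shared by transcripts that end the receptor at different places. Most of it was assigned to Il4ra-201, the full coding transcript, and to Il4ra-205, which carries an additional exon after exon 7. In mice a soluble IL-4 receptor is known to be made from an mRNA with an extra exon that ends the protein before its membrane-spanning segment. The additional exon of Il4ra-205 has 114 bases, at chr7:125571934-125572047 on the + strand of mm10, and holds a stop codon after 17 coding bases. The first 50 bases across the junction, 30 of them from exon 7, are shown for both transcripts as GENCODE M21 has them, with that stop codon in capitals.
Il4ra-205: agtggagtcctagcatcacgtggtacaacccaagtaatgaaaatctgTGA
Il4ra-201: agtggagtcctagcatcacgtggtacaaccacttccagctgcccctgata
The exon 7 part lies at chr7:125571561-125571590. It is followed by chr7:125571934-125571953 in Il4ra-205 and by chr7:125572851-125572870 in Il4ra-201. GENCODE places Il4ra-205 in the class of nonsense-mediated decay, with 690 coding bases against 2430 in Il4ra-201, and no protein was measured.

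Macrophage markers were high in every library. All 9 had a mean of at least 10 TPM (a level per transcript length, scaled to the same total in each library), led by Lyz2, which encodes lysozyme, at 9726 ± 1479 TPM (SD, n = 4). Markers of lymphoid cells, which also use several of these receptor chains, were near 0. Of 9 T cell markers 8 averaged under 1 TPM, and the exception was Cd28, a costimulatory receptor, at 45.8 and 48.5 TPM in replicates 3 and 4, against 17.6 and 36.2 TPM in replicates 1 and 2. All 6 NK cell markers were below 1 TPM, led by Klrd1 with at most 0.320 TPM in any library, and so were 5 of 6 B cell markers, the exception being Cd79b at 3.16 ± 0.712 TPM. Neutrophil markers were uneven. Their summed level was 80.6 and 7.24 TPM in replicates 3 and 4, against 91.0 and 14.8 TPM in replicates 1 and 2, most of it S100a9. Markers of dendritic cells, mast cells and basophils, erythroid cells and fibroblasts all averaged below 1 TPM, led by Xcr1, Kit, Klf1 and Dcn. Of 5 endothelial markers 4 were above it, Kdr at 15.4 ± 11.4, Vwf at 5.95, Pecam1 at 3.70 and Cdh5 at 2.50 TPM. The other, Tek, stood at 0.00250 TPM. The part of these other cells in the levels given here was not tested. Gene counts totalled 48875472 and 57126810 in replicates 3 and 4, against 25594340 and 27384162 in replicates 1 and 2, and the 10 genes had between 184 and 43308 counts per library.

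All 10 genes were expressed, over a wide range of levels. No library had any of them below 1 TPM, and 9 of them stayed at 10 TPM or more. By mean level the order was Il2rg, Il10rb, Il4ra, Il15, Il10ra, Il15ra, Il10, Il6st, Il6ra and Il13ra1, so that the shared chains of the IL-2 and IL-10 families led and the second chain of the IL-4 and IL-13 receptor came last. Ranges of neighbours in this order overlapped in 6 of 9 cases. The 3 steps without overlap were from Il10rb to Il4ra, from Il10ra to Il15ra and from Il6ra to Il13ra1.

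**Figure D1:**
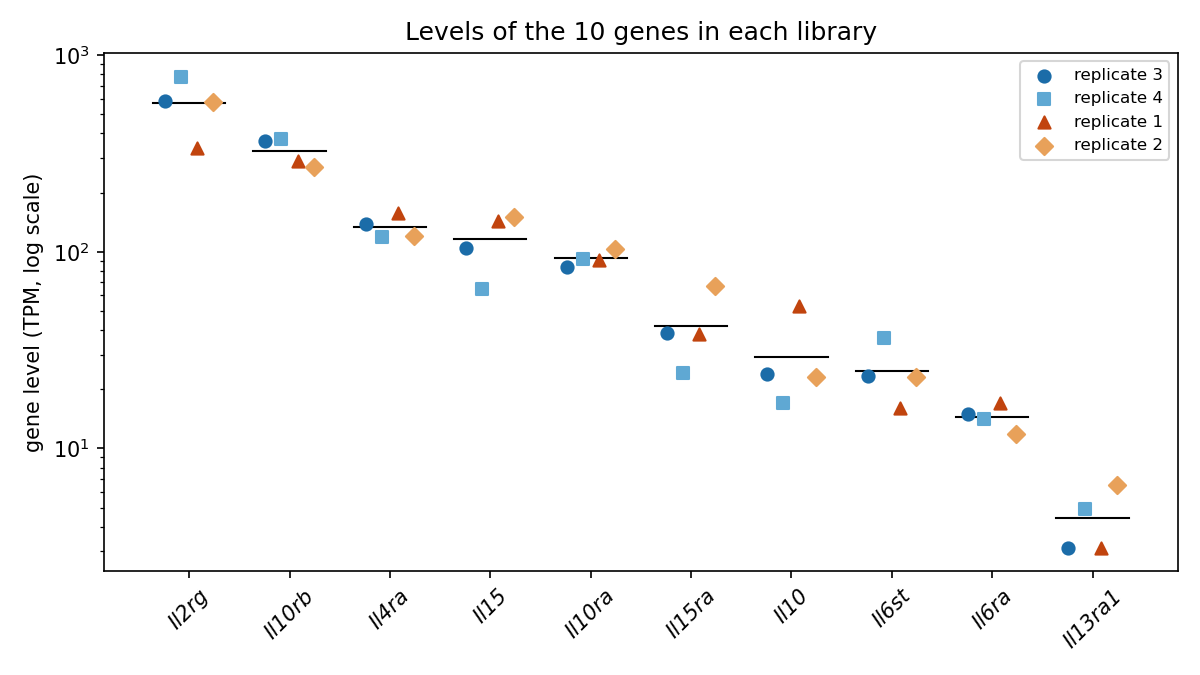
Gene levels in TPM on a log scale for the 10 genes, ordered by mean level; each point is a library and each horizontal line the mean of 4 libraries. Il2rg (337 to 779 TPM) and Il10rb (269.9 to 376 TPM) sit on top and Il13ra1 (3.13 to 6.52 TPM) at the bottom.

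Il10, the cytokine gene on chromosome 1 (mm10 chr1:131019845-131024974, + strand), was moderately expressed. It had 23.9 and 17.1 TPM in replicates 3 and 4, against 52.8 and 23.2 TPM in replicates 1 and 2, a mean of 29.2 ± 16.0 TPM. Replicate 1 was the highest, the remaining 3 lay close together, and the pairs of libraries overlapped. Its coefficient of variation, 54.8%, was the highest of the 10 genes in the table laid out as by RSEM, against a median of 22.3% over the 9774 nuclear protein-coding genes with at least 1 TPM in every library. In the table laid out as by kallisto it was 42.6%, below Il6st at 48.4% and Il2rg at 43.4%. In a bulk library, fewer cells of a type and less RNA per cell cannot be told apart. The gene has 1 annotated transcript, and 38.6% of those 9774 genes had a higher mean.

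Il15 (chr8:82331632-82403222, − strand) had 105 and 65.1 TPM in replicates 3 and 4, against 143 and 150.5 TPM in replicates 1 and 2, a mean of 116 ± 39.4 TPM. Its levels in replicates 3 and 4 were below both others. In each library Il15 exceeded Il10, by a mean log2 ratio of 2.01 ± 0.51 (SD, n = 4). Both are levels of the whole gene. Transcripts with a consensus coding sequence made up 54.1 ± 4.48% of Il15, against 100.0% of Il10, and the ratio was not taken over these alone. Ratios between genes are log2((TPM + 1)/(TPM + 1)) within a library, and 11 of them were tested with an exact two-sided sign-flip permutation test, for which 4 libraries give 16 arrangements of signs and thus no p below 2 in 16. The ratio of Il15 to Il10 had that smallest p of the exact test, 0.138 after Benjamini-Hochberg adjustment over the 11 pairs, and so did every other pair except Il6st over Il6ra. No pair could therefore pass a threshold of 0.05, and the ratios are given for their size and their direction over libraries.

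The chains of the IL-10 receptor were unequal. Il10ra (chr9:45253837-45269149, − strand), the chain that binds IL-10, varied least of the 10 genes in the table laid out as by RSEM. It had 83.5 and 92.5 TPM in replicates 3 and 4, against 90.9 and 104 TPM in replicates 1 and 2, a mean of 92.7 ± 8.35 TPM and a coefficient of variation of 9.01%. Il10rb (chr16:91406164-91425834, + strand), which also serves the receptors of IL-22 and interferon lambda, had 365 and 376 TPM in replicates 3 and 4, against 289 and 269.9 TPM in replicates 1 and 2, a mean of 325 ± 53.2 TPM. The private chain was lower than the shared chain in all 4 libraries, by a mean log2 ratio of -1.79 ± 0.34. Il10 itself lay below Il10ra in all 4, at -1.76 ± 0.70, with replicate 1 nearest to even at -0.77. A protein-coding gene on the same strand, Gm21970, shares exonic sequence with Il10rb and was given 0.19 to 0.42 TPM, so that the division of reads between them is uncertain. Il22ra1 and Ifnlr1, which would complete the receptors of IL-22 and interferon lambda with Il10rb, were listed at 0 TPM in all 4 libraries. So was Il20ra, another of the partner chains looked at.

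The deposited tables hold a further quantification, in the layout of kallisto, in which Il10ra had 91.5 and 104 TPM in replicates 3 and 4, against 64.6 and 74.8 TPM in replicates 1 and 2. Its coefficient of variation there was 20.9%, above that of Il4ra at 13.8%. Unless kallisto is named, the values given are from the table in the layout of RSEM, which gave Il10ra-201 95.0% and 93.7% of the gene in replicates 3 and 4, against 96.1% and 96.3% in replicates 1 and 2. In the kallisto layout the share was 52.8% and 39.4% in replicates 3 and 4, against 96.9% and 94.1% in replicates 1 and 2. In replicates 3 and 4 nearly all of the remainder was Il10ra-202, and in replicates 1 and 2 most of the small remainder was Il10ra-203, a transcript of the decay class. Il10ra-202 had 42.2 and 61.8 TPM in replicates 3 and 4, against 0.402 and 1.44 TPM in replicates 1 and 2. Il10ra-202 has no base that Il10ra-201 lacks, and 699 bases fewer, of which 6 are coding.

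Il2rg (chrX:101264378-101268255, − strand) was the most abundant of the 10. The common gamma chain that it encodes joins the receptors for IL-2, IL-4, IL-7, IL-9, IL-15 and IL-21. It had 585 and 779 TPM in replicates 3 and 4, against 337 and 579.6 TPM in replicates 1 and 2, a mean of 570.2 ± 181 TPM, and 2.09% of the expressed coding genes had a higher mean. Replicate 1 was low and replicate 4 high, and the pairs did not overlap, though replicates 2 and 3 were close. Cd28 was also lowest in replicate 1, while Cd3e, Cd3d and Cd3g, which define T cells, reached no more than 0.430 TPM in any library; their part in the level was not tested. Of the chains it pairs with, Il21r averaged 72.5 ± 6.59 TPM and Il7r 11.2 ± 2.22 TPM, while Il2rb, the signalling chain shared by IL-2 and IL-15, had 0.32 and 0.03 TPM in replicates 3 and 4, against 0.33 and 0.03 TPM in replicates 1 and 2. Il2rg exceeded Il2rb by a mean log2 ratio of 8.87 ± 0.67, a size that depends on the added 1 TPM. Transcript Il2rg-201 held 92.2% and 96.9% of the gene in replicates 3 and 4, against 91.6% and 91.5% in replicates 1 and 2. A gene model that shares exonic sequence with Il2rg, Gm20489, was listed at 0 TPM in all libraries.

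The chains for IL-4 and IL-13 differed widely in level. Il4ra (chr7:125552120-125579474, + strand) had 138 and 119 TPM in replicates 3 and 4, against 157 and 120.2 TPM in replicates 1 and 2, a mean of 134 ± 18.0 TPM. Il13ra1 (chrX:36112110-36171259, + strand), which joins Il4ra in the receptor that binds both cytokines, had 3.13 and 4.95 TPM in replicates 3 and 4, against 3.13 and 6.52 TPM in replicates 1 and 2, a mean of 4.43 ± 1.63 TPM. Il2rg, the alternative partner of Il4ra for IL-4 alone, exceeded Il13ra1 in all 4 libraries by a mean log2 ratio of 6.70 ± 0.45. Il4ra exceeded Il13ra1 by 4.67 ± 0.59 and was below Il2rg, at -2.03 ± 0.68. The decoy receptor Il13ra2 was listed at 0 TPM in 3 libraries and at 0.03 TPM in replicate 1.

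**Figure D2:**
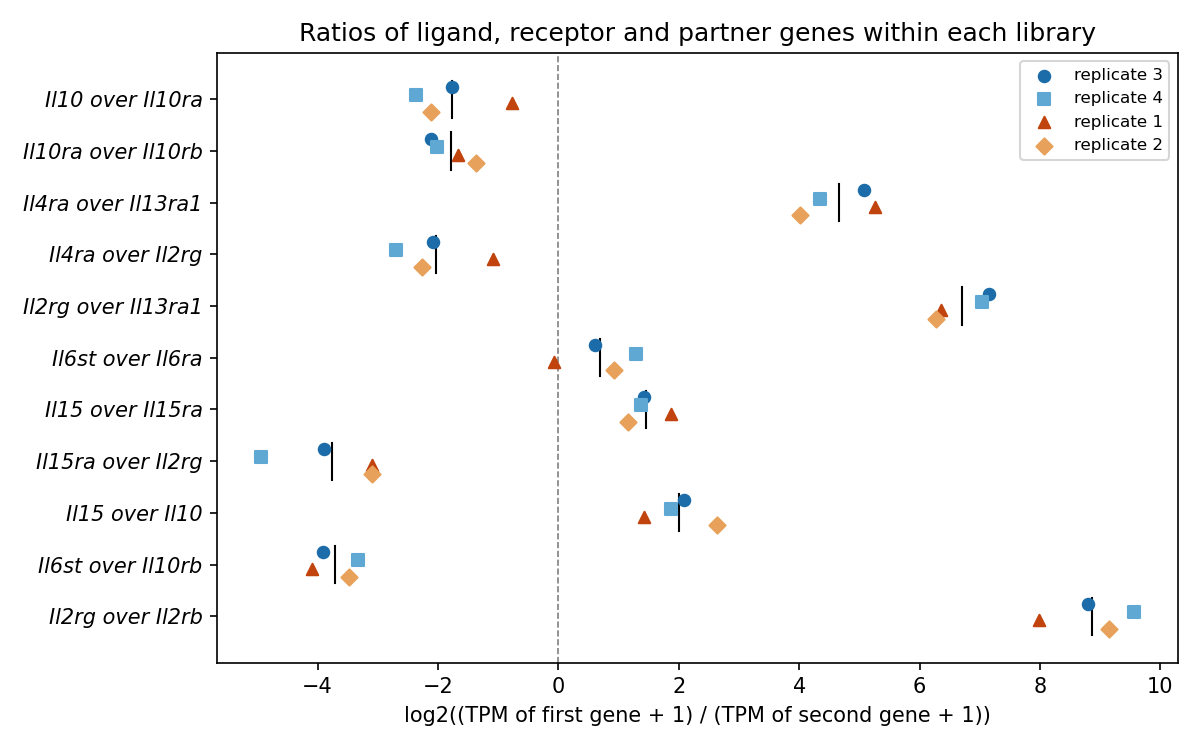
Log2 ratios of 2 genes within each library (horizontal axis, from TPM with 1 added) for the 11 pairs; points are libraries, vertical lines means, and the dashed line marks equal levels. Apart from Il6st over Il6ra, where replicate 1 falls at -0.08, each pair keeps its side in all 4 libraries.

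The Il4ra transcripts whose junctions are printed above took most of the gene in both quantifications. In the RSEM layout Il4ra-201 had a steady share of 48.4% and 47.8% in replicates 3 and 4, against 48.8% and 52.2% in replicates 1 and 2. Il4ra-205, with the extra exon, had 31.1% and 16.1% in replicates 3 and 4, against 48.4% and 45.2% in replicates 1 and 2. Its share was thus lower in replicates 3 and 4, while that of Il4ra-202, a short coding model of 491 bases, was higher there. Il4ra-202 had 16.1% and 31.6% in replicates 3 and 4, against 0.604% and 0% in replicates 1 and 2. Shares were not tested between libraries, so these differences are a description. The kallisto layout gave Il4ra-205 the majority in 3 libraries and the largest share in replicate 4. Its share there was 66.5% and 48.5% in replicates 3 and 4, against 79.1% and 75.4% in replicates 1 and 2, and that of Il4ra-201 was 21.5% and 21.2% in replicates 3 and 4, against 16.9% and 19.5% in replicates 1 and 2. As levels, Il4ra-205 had 42.9 and 19.2 TPM in replicates 3 and 4, against 76.2 and 54.4 TPM in replicates 1 and 2 in the RSEM layout, and 94.0 and 61.4 TPM in replicates 3 and 4, against 101 and 75.6 TPM in replicates 1 and 2 in the kallisto layout. Both quantifications assigned a level to the transcript with the extra exon in every library. Its proportion to the full coding transcript depended on the quantification. Reads across the junctions were not counted, so use of the extra exon was not tested.

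The IL-6 receptor genes stood at similar, lower levels. Il6st (chr13:112464070-112510086, + strand) had 23.3 and 36.4 TPM in replicates 3 and 4, against 16.0 and 23.2 TPM in replicates 1 and 2, a mean of 24.7 ± 8.49 TPM. Il6ra (chr3:89864059-89913196, − strand), the chain that binds IL-6, had 14.9 and 14.2 TPM in replicates 3 and 4, against 17.0 and 11.8 TPM in replicates 1 and 2, a mean of 14.5 ± 2.14 TPM. An antisense gene over Il6ra, Gm42809, was given 0.06 to 0.35 TPM, and without known use of strand its reads cannot be told from those of Il6ra. Il6st was the higher in 3 of 4 libraries, with a mean log2 ratio of 0.69 ± 0.58 and an exact sign-flip p of 0.250, also 0.250 after adjustment over the 11 pairs. Il6st lay below Il10rb, another shared chain, in all libraries, at -3.71 ± 0.36. Of other chains that gp130 pairs with, Il11ra1 averaged 16.1 ± 3.12 TPM, whereas Lifr, Il27ra, Osmr and Cntfr averaged 0.435, 0.107, 0.0325 and 0.00250 TPM.

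Each of the IL-6 receptor genes was divided between a long and a short transcript. For Il6ra, the long Il6ra-202 (8639 bases) had 63.4% and 56.9% in replicates 3 and 4, against 40.9% and 47.0% in replicates 1 and 2 in the RSEM layout, and the rest was Il6ra-201 (3343 bases). For Il6st, Il6st-203 (8678 bases) had 63.7% and 55.4% in replicates 3 and 4, against 69.4% and 73.9% in replicates 1 and 2, and almost all of the rest was Il6st-201 (5207 bases). The Il6st transcripts share the same coding bases, and the coding parts of the Il6ra transcripts differ by 3 bases. In the kallisto layout the short transcript had the larger share of both genes in every library, with means of 68.6% for Il6ra-201 and 60.4% for Il6st-201.

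**Figure D3:**
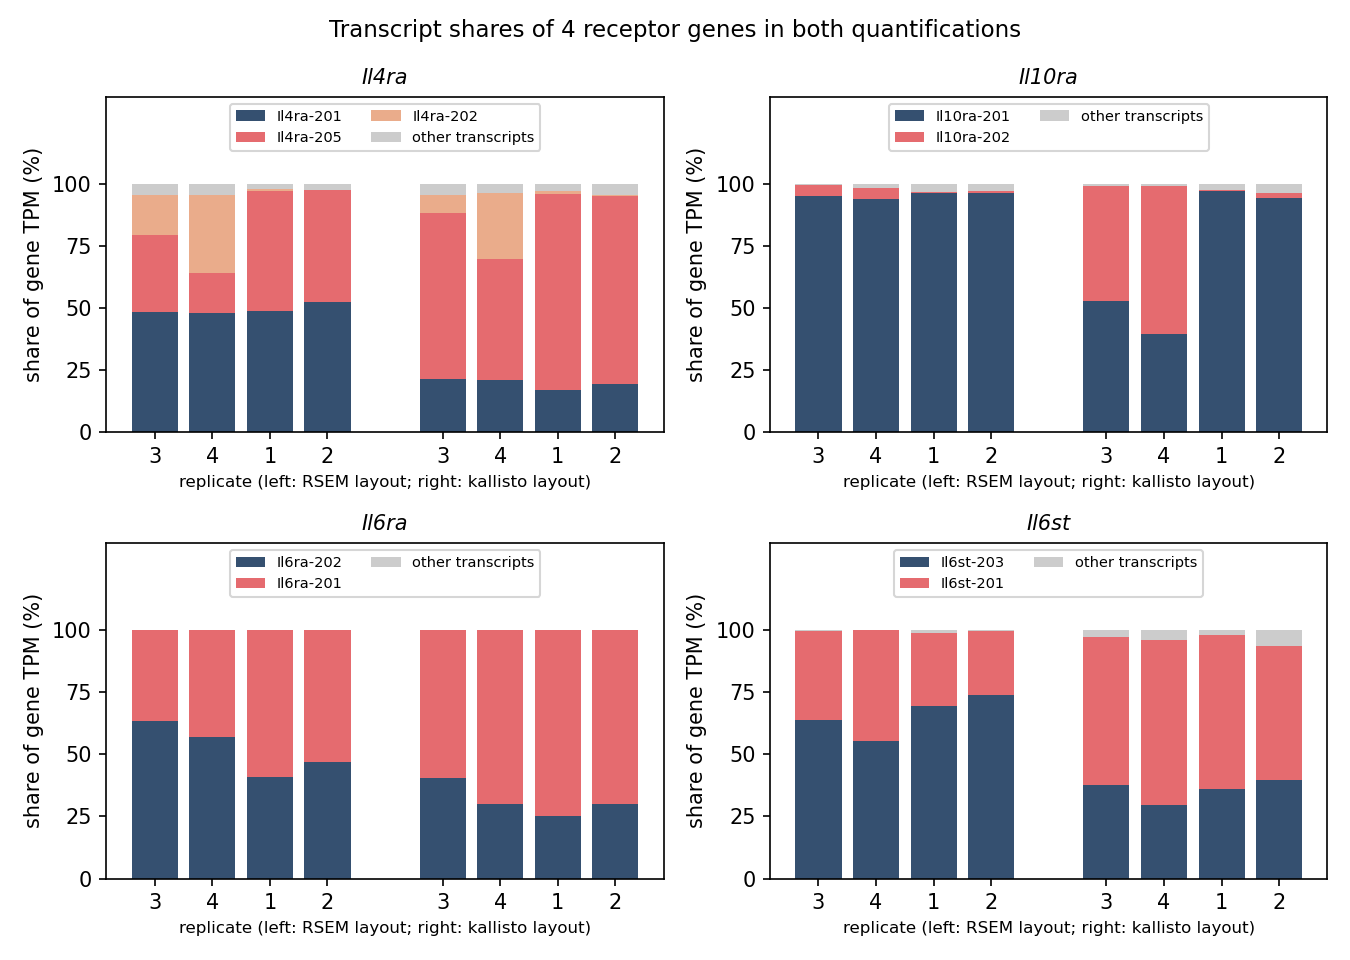
Shares of the gene's TPM (vertical axis, %) for the transcripts of Il4ra, Il10ra, Il6ra and Il6st, stacked for each library; the left 4 bars of a panel are the RSEM layout and the right 4 the kallisto layout. Il4ra-205 is larger in the kallisto layout in every library, and Il10ra-202 reaches 46.1% and 59.5% only in the kallisto bars of replicates 3 and 4.

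Il15ra (chr2:11705290-11734317, + strand), which holds IL-15 for presentation, had 38.5 and 24.3 TPM in replicates 3 and 4, against 38.4 and 67.2 TPM in replicates 1 and 2, a mean of 42.1 ± 18.0 TPM. Replicate 2 was high and replicate 4 low, and the groups overlapped narrowly. Il15 exceeded Il15ra in all 4 libraries, by 1.46 ± 0.30 on the log2 scale, the smallest SD of the 11 ratios. Il15ra lay below Il2rg by more in replicates 3 and 4, at -3.89 and -4.94, than in replicates 1 and 2, at -3.10 and -3.09.

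The IL-15 genes were spread over many transcripts. Of 10 annotated Il15 transcripts 5 averaged at least 10% of the gene. Il15-202 led with 40.6% and 44.8% in replicates 3 and 4, against 28.8% and 36.4% in replicates 1 and 2. Il15-203, with the same coding bases, averaged 11.7 ± 3.84%, the decay-class Il15-209 12.9 ± 3.33% and the short coding model Il15-205 10.9 ± 1.89%. The non-coding Il15-207, a model of 234 bases, had 8.04% and 8.49% in replicates 3 and 4, against 21.7% and 20.1% in replicates 1 and 2. Transcripts with a consensus coding sequence (CCDS) made up 54.1 ± 4.48% of Il15 and 56.6 ± 4.12% of Il15ra, against 97.8 ± 1.54% of Il10rb. The leading Il15ra transcripts were Il15ra-210 at 28.6 ± 6.43%, Il15ra-215 at 18.6 ± 6.12% and Il15ra-201 at 13.8 ± 5.25%. In the kallisto layout the CCDS share was 52.8 ± 4.79% for Il15 and 47.1 ± 6.31% for Il15ra.

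Promoter sequences of RefSeq (GRCm38.p6, 250 bases before to 50 after a start site) were at hand for 6 of the 10 genes in 7 windows, and not for Il10, Il10ra, Il10rb and Il15. They were searched on both strands for the core of the interferon-stimulated response element, GAAANNGAA, and for the gamma-activated site to which STAT dimers bind, TTCNNNGAA. Il15ra, known as a gene that interferons induce, was the member with a match, to the first motif in each of its windows. The matches, in capitals and read on the gene's strand, are shown for that reason. The upper one is a match of the opposite strand.
Il15ra, chr2:11705134-11705163: tcaccccttcTTCCATTTCaaacacttggc
Il15ra, chr2:11705732-11705761: aagcaaaagcGAAAGCGAAtactccttagc
The motif starts 149 bases before the start site of its window in the upper sequence and at base 31 after it in the lower. Of all 32851 promoter windows 8.56% hold this motif and 8.30% the gamma-activated site, which none of the 7 windows of these genes held. The motifs were chosen with these sequences in view, and a match is a description of letters.

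A technical difference recorded for the libraries was the number of read files in the notes deposited with them, 4 for each of replicates 3 and 4 but 6 for each of replicates 1 and 2. Mitochondrial genes moved with it, at 3.34% and 3.00% of counts in replicates 3 and 4, against 0.778% and 1.16% in replicates 1 and 2, and what it reflects is not given. The comparison of these libraries is thus one of libraries, not of conditions. With edgeR's quasi-likelihood test on rounded expected counts, 0 of the 10 genes had a Benjamini-Hochberg adjusted p under 0.05, while 5.50% of the 13264 genes tested did. At an unadjusted p under 0.05 the count was 1 of 10, Il15ra, against 27.4% of all genes, and with DESeq2 it was 0 of 10 adjusted, against 14.4%, and 4 of 10 unadjusted, against 25.8%. The median of the absolute log2 fold changes was 0.49 for the 10 genes and 0.38 for all genes tested. TPM levels in replicates 3 and 4 lay above those in replicates 1 and 2, without overlap, for Il2rg, Il10rb and Il6st (3 of 10, against 28.7% of all genes tested) and below them for Il15 (1 of 10, against 26.9%). The gap between replicates 2 and 3 was narrow for Il6st (23.2 and 23.3 TPM) and Il2rg (579.6 and 585 TPM).

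The fold changes of the 10 genes ran in both directions. The log2 fold change of replicates 3 and 4 over replicates 1 and 2 was positive for 4 genes, the shared chains Il2rg (0.65, SE 0.27), Il6st (0.54, SE 0.24) and Il10rb (0.42, SE 0.21), and Il6ra (0.23, SE 0.25). It was negative for 6 genes, among them the cytokines Il10 (-0.94, SE 0.47) and Il15 (-0.55, SE 0.24) and the chain Il15ra (-0.77, SE 0.31), with smaller values for Il4ra (-0.43, SE 0.29), Il13ra1 (-0.21, SE 0.34) and Il10ra (-0.14, SE 0.17). The sign of Il13ra1 turned without replicate 2 and without replicate 3, and that of Il6ra without replicate 2. The edgeR adjusted p was 0.171 for Il15ra, 0.192 for Il2rg, 0.207 for Il6st, 0.211 for Il15, 0.251 for Il10 and 0.256 for Il10rb, and above these for the other 4. The interval of the difference for Il10, from -2.08 to 0.20 (95%), includes 0. Over all alternatives the adjusted p of Il10 ran from 0.00114 to 0.978 and that of Il15ra from 0.00817 to 0.493. The log2 fold change of Il10 was -0.02 without replicate 1 and -1.50 without replicate 2, in fits that leave 1 library on a side. With no filter on low counts Il10 and Il15ra passed, with adjusted p of 0.00114 and 0.00817, in a fit that called 11.7% of its genes.

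**Figure D4:**
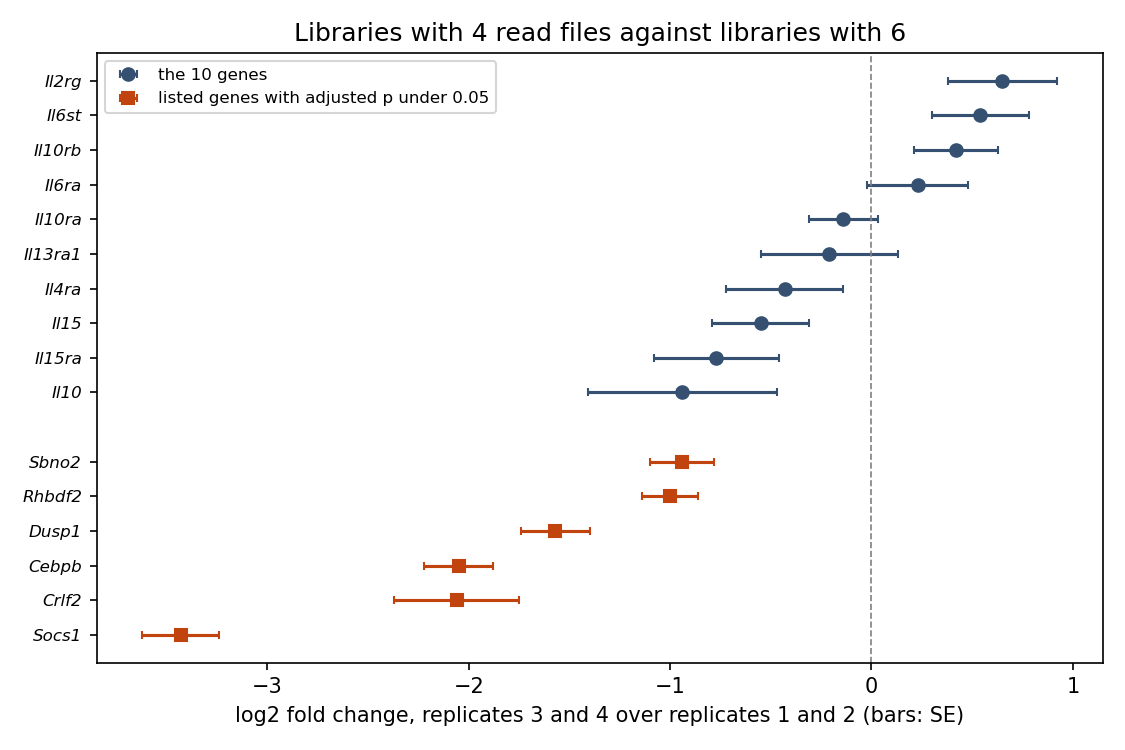
Log2 fold changes of replicates 3 and 4 over replicates 1 and 2 from edgeR (horizontal axis, bars are SE) for the 10 genes (circles) and the 6 listed genes with an adjusted p under 0.05 (squares). The 10 genes lie between -0.94 and 0.65, and all 6 listed genes are at -0.94 or lower.

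Few partner chains and ligands were expressed. Of 17 partner chains 5 averaged at least 1 TPM and 4 were at 0 TPM in all libraries. Crlf2, which pairs with the IL-7 receptor chain to bind TSLP, was the highest, with 35.0 and 24.4 TPM in replicates 3 and 4, against 146 and 106 TPM in replicates 1 and 2. It was the 1 partner chain that passed the edgeR test of the libraries, of 8 tested, while 3.61% of all genes tested were called lower and 1.88% higher, with a log2 fold change of -2.06 (SE 0.31, adjusted p = 0.0329). With offsets for GC content and length, a fit that called 5.20% of all genes, the fold change was -1.39 and still called. The call did not hold without replicate 3 (-2.36) or without replicate 4 (-1.80), and the adjusted p over 11 alternatives ran from 7.2e-19 to 0.101. DESeq2 called 3 of the 8, Crlf2 and Il11ra1 lower and Lifr higher, against 14.4% of all genes.

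Among 20 ligands of these and related receptors, 4 averaged at least 1 TPM. Of the 5 that could be tested, edgeR called 0, against 5.50% of all genes, with 1 at an unadjusted p under 0.05, against 27.4%. DESeq2 called 1, Il27, lower in replicates 3 and 4, against 14.4%, and so did the fit with GC and length offsets, against 5.20%. Ebi3, the beta subunit of IL-27 and IL-35, had 281 and 251 TPM in replicates 3 and 4, against 239 and 231 TPM in replicates 1 and 2. Il27, the other subunit of IL-27, which signals through gp130, averaged 11.5 ± 8.80 TPM. Il6 was uneven, with 0.51 and 3.63 TPM in replicates 3 and 4, against 2.04 and 23.6 TPM in replicates 1 and 2, and replicate 2 stood high. Il4 averaged 0.603, Il2 0.0300 and Il13 0.00750 TPM, and Il22, Il21 and Il9 were listed at 0 TPM in all libraries.

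**Figure D5:**
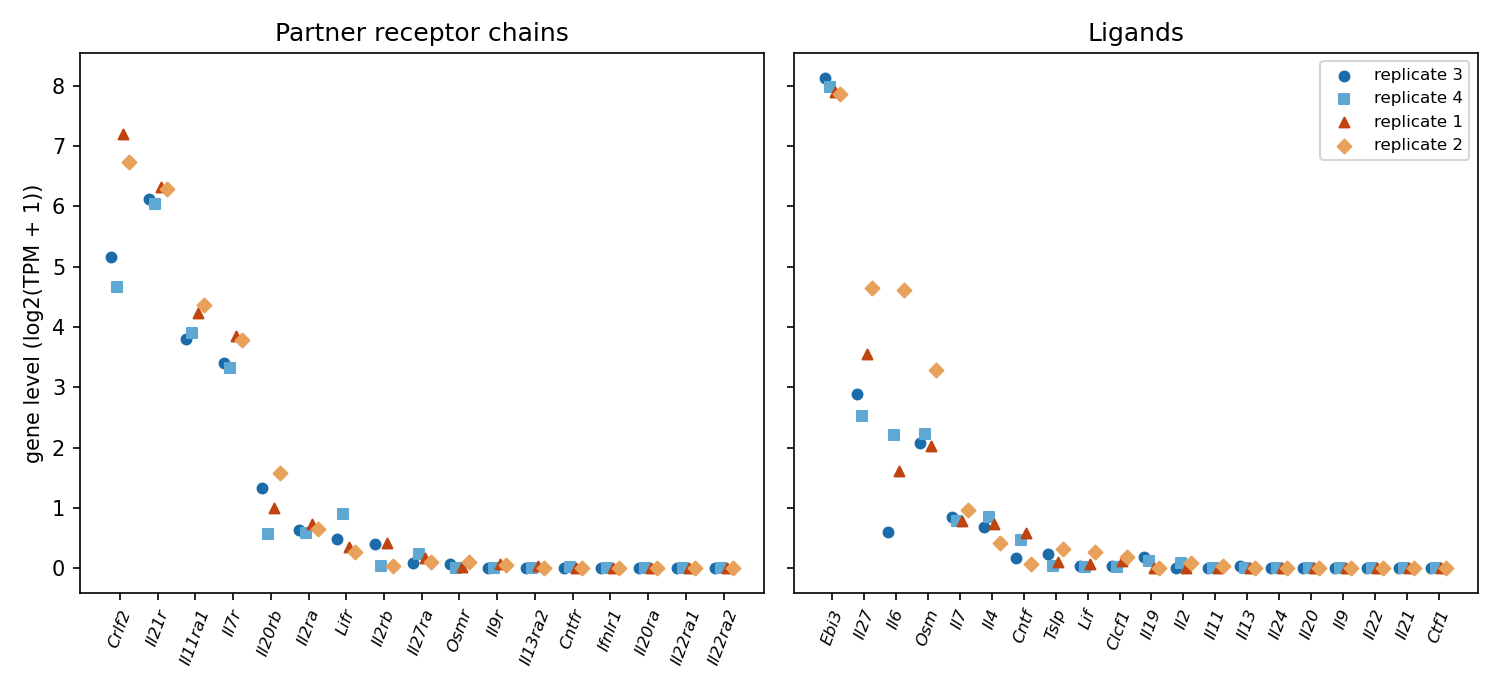
Levels, as log2(TPM + 1), of the 17 partner receptor chains (left) and 20 ligands (right) in each library, each panel ordered by mean TPM. Crlf2 and Il21r lead the chains and Ebi3 the ligands, and most genes of both panels lie near 0.

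The signalling genes of these receptors were present throughout. Of 19 JAK, STAT and feedback genes 17 averaged at least 1 TPM, among them the phosphatase gene Ptpn6 at 436 ± 67.8 and Stat2, which encodes a STAT protein, at 435 ± 20.8 TPM. The edgeR test called 0 of the 19 higher and 1 lower in replicates 3 and 4, against 1.88% and 3.61% of all genes. That 1 was Socs1, an inhibitor of JAK kinases, with 1.46 and 1.37 TPM in replicates 3 and 4, against 13.8 and 17.5 TPM in replicates 1 and 2, a log2 fold change of -3.43 (SE 0.19, adjusted p = 0.0110). It was called in all 11 alternatives. DESeq2 and the fit with GC and length offsets each called 2 of the 19, against 14.4% and 5.20% of all genes. They were Socs1 and Socs3, another JAK and STAT feedback inhibitor, at -1.40 and -1.17 for Socs3.

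Genes known to respond to IL-10 all averaged 1 TPM or more, 13 of 13, in a list that includes Il4ra and the macrophage marker Fcgr1. The lowest, Ddit4, averaged 1.02 TPM. It had 1.22 and 0.630 TPM in replicates 3 and 4, against 0.940 and 1.30 TPM in replicates 1 and 2. A response of these genes to IL-10 was not tested. Fcgr1, an Fc receptor, averaged 827 ± 317, Hmox1, the haem oxygenase, 464 ± 72.5 and Tnfrsf1b, a TNF receptor, 423 ± 102 TPM. The edgeR test called 1 of 13, Sbno2, a corepressor gene, lower in replicates 3 and 4 (-0.94, SE 0.16, adjusted p = 0.0366), against 3.61% of all genes. This call was lost in 4 of 11 alternatives, with adjusted p up to 0.202 and fold changes over the 11 from -1.04 to -0.71. DESeq2 called 3 of the 13, Sbno2, Socs3 and Tnfrsf1b, against 14.4% of all genes. The fit with GC and length offsets called 1, Socs3, against 5.20%. Of 15 genes known to respond to IL-4 and IL-13, 8 averaged at least 1 TPM. Of the 11 tested, edgeR called 0, against 5.50% of all genes, with 3 at an unadjusted p under 0.05, a share near the 27.4% of all genes. DESeq2 called 3, Tgm2, Chil3 and Egr2, all lower in replicates 3 and 4, against 14.4% of all genes, and the fit with GC and length offsets called the same 3, against 5.20%. The leading 3 were Tgm2, a transglutaminase, at 80.3 ± 55.4, Mrc1, the mannose receptor, at 41.6 ± 5.57 and Chil3, a chitinase-like protein, at 9.14 ± 4.80 TPM. Retnla and Ccl17 were listed at 0 TPM in every library.

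Regulators of the Il10 gene were led by Maf, a transcription factor, at 178 ± 26.8 TPM, Zfp36, which destabilises cytokine mRNAs, at 94.9 ± 11.8 TPM and Jun at 70.9 ± 5.06 TPM. The edgeR test called 2 of 16 such genes, both lower in replicates 3 and 4, against 3.61% of all genes. DESeq2 and the fit with GC and length offsets each called 3, against 14.4% and 5.20% of all genes. They were the 2 called by edgeR and Fos, a partner of Jun, at -2.32 and -2.50. Cebpb, a transcription factor, had 22.5 and 19.2 TPM in replicates 3 and 4, against 80.3 and 93.7 TPM in replicates 1 and 2 (log2 fold change -2.05, SE 0.17, edgeR adjusted p = 0.0124). It was called in all 11 alternatives, with -1.27 under GC and length offsets. Dusp1, a phosphatase that turns off p38, had 11.5 and 10.1 TPM in replicates 3 and 4, against 26.0 and 30.5 TPM in replicates 1 and 2 (-1.57, SE 0.17, edgeR adjusted p = 0.0204), and it was not called without replicate 3 or without replicate 4, with adjusted p up to 0.0824.

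Among 10 genes for shedding and transport of receptors, Rab7, a late endosome GTPase, averaged 552 ± 212, Adam17, the sheddase of the IL-6 receptor, 70.2 ± 6.90 and Stub1, a ubiquitin ligase, 58.2 ± 3.23 TPM. Rhbdf2, which carries ADAM17 to the cell surface, was the 1 of 9 tested that passed, lower in replicates 3 and 4 (-1.0, SE 0.14, edgeR adjusted p = 0.0311), against 3.61% of all genes. It lost the call in 4 of 11 alternatives, with adjusted p up to 0.152 and fold changes over the 11 from -1.08 to -0.83, the smallest under GC and length offsets. DESeq2 called 2 of the 9, Rhbdf2 and, higher in replicates 3 and 4, Rab7, against 14.4% of all genes. Medians of the log2 fold changes were -0.29 for the partner chains, -0.74 for the ligands, -0.32 for the JAK and STAT list, -0.42 for the IL-10 response, -0.19 for the Il10 regulators, -0.40 for the IL-4 and IL-13 response and -0.04 for shedding and transport, against -0.02 for all genes tested.

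The genes whose levels ran most like Il10 over the 4 libraries, by the root-mean-square difference of centred log2 CPM among 8734 genes of at least 5 TPM, were Ctsl (0.088), which encodes cathepsin L, Rin2 (0.094) and Rapgef2 (0.102), where the median gene differed by 0.69. Ctsl had 389 and 312 TPM in replicates 3 and 4, against 946 and 473 TPM in replicates 1 and 2. The genes most like Il15 were Trappc2 (0.038), Ndufs4 (0.055) and Fcna (0.057), with a median of 0.44. Trappc2 had 8.46 and 5.39 TPM in replicates 3 and 4, against 10.7 and 11.9 TPM in replicates 1 and 2. Each comparison rests on 4 points, 1 for each library, so the likeness is a description.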

How the data were processed

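RNA was polyA selected, per the labels. The deposited expected counts, TPM and transcript percentages of gene totals come from tables laid out as RSEM writes them, and a further transcript table is laid out as by kallisto. All were made by the authors on mm10 with GENCODE M21, per the deposited notes. For programs, versions and use of strand the sources used here give nothing. Of all rows, 26345 with no GENCODE gene were left out (0.0419% to 0.128% of counts). A count of 0 allows 0.0525 to 0.117 CPM (3 counts), covering counting error only.

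Expected counts were rounded and tested in R 4.3.3 by the quasi-likelihood test of edgeR 4.0.16 (TMM, minimum count 10 in filterByExpr, threshold 0.05), checked on simulated counts; DESeq2 1.42.0 was an alternative. Ratios used TPM + 1. Other steps ran in Python 3.11.15 with scipy 1.17.1, pandas 2.3.3 and numpy 2.4.6, and plots in matplotlib 3.10.9. Members, lists and pairs were chosen with earlier results of these data known. Named genes were the members, pairs, the 3 highest and all called genes of each list, the highest of each marker list, the 3 genes most like Il10 and Il15, and member transcripts averaging at least 10%; further ones were picked with their values in view. The value of 1 listed gene is not reported here. Each choice of scaling, filter, pseudocount, tool and table was also varied, and replicates were left out in turn.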

Additional observations from a re-analysis of the deposited data

How the results depend on the processing

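Direction was kept by all 11 ratios under another pseudocount, the kallisto layout, coding genes only and without any 1 replicate; the restriction to genes of at least 1 TPM gives no value for Il2rg over Il2rb. The count of genes called between libraries was 729 in the edgeR fit, 1907 with DESeq2 and 2569 with no filter on low counts, and 51 to 640 when 1 replicate was left out. Of the 10 genes, 0 were called in the edgeR fit, against 5.50% of all genes tested, and 0 with DESeq2, against 14.4%. With no filter 2 were called, against 11.7%. The log2 fold change of Il10 (-0.94) ran from -1.50 to -0.02 when 1 replicate was left out. Without 1 replicate the log2 fold change of Il13ra1 (-0.21) ran from -0.56 to 0.24, turning to 0.24 without replicate 2 and 0.10 without replicate 3, and that of Il6ra (0.23) from -0.08, without replicate 2, to 0.65. Il6st moved to place 7 and Il10 to place 8 in the order with the kallisto layout and without replicate 1. Mean shares in the kallisto layout were 67.4% for Il4ra-205, 19.8% for Il4ra-201, 70.8% for Il10ra-201, 31.4% for Il6ra-202 and 35.8% for Il6st-203. The cause was not tested, except that leaving out a replicate leaves 1 library on a side, assumed to vary like the others. No paired analysis was possible because the series has 1 group. Depth is lowest for Il13ra1, with 184 counts in replicate 1.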
